A study of Nicotiana benthamiana with 7 samples.

Results

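The GFP coding sequence 3′ of midGFP is the stretch from GFP position 473 to position 792, the last base of the stop codon. Its members are 320 of the 1931 positions of the deposited coverage table. The rule takes them by place, from 40 nt beyond the end of the sprayed segment to the end of the coding sequence, and uses no measured value, although it was written with earlier results of these data known. In the table they are positions 1325 to 1644, and GFP positions are table positions minus 852.

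Small RNA of sprayed leaves of Nicotiana benthamiana was sequenced 5 days post spraying (dps). The homozygous GFP line 16C (Nb-16C) and wildtype plants, which lack the GFP transgene, had been sprayed at 6 bar with dsRNA-midGFP. This is a dsRNA of 139 nt that matches GFP positions 294 to 432. The 16C-ds group and the WT-ds group had 3 libraries each, every library from the mature sprayed leaves of 1 plant, and all 6 received the same dsRNA. A single water-sprayed 16C plant (16C-w) was also sequenced, but no column name of the coverage table matched its title. A column with a 16C header beyond those of the 3 replicates matched no sample title and was not used. Whether it holds 16C-w is not known, and 16C-w coverage was not analysed here. The 16C-ds values therefore have no water-sprayed 16C values beside them. Nb-16C is 1 transgenic line, and the place of its transgene in the plant genome was not used.

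In plants, DICER-LIKE enzymes cut long dsRNA into small interfering RNAs (siRNAs), which guide ARGONAUTE proteins to matching transcripts. The RNA-dependent RNA polymerase RDR6 can copy a targeted transcript into new dsRNA, and secondary siRNAs then arise from transcript sequence outside the first target, a process called transitivity. Sequence 3′ of the sprayed segment lies outside the dsRNA and inside the transcript, and small RNAs mapping there can be read apart from those of the sprayed segment. Sense fragments of the GFP mRNA map to the same positions, and the coverage used here carries neither strand nor read length.

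Nearly all WT-ds coverage between positions 473 and 792 lay in 2 stretches, GFP positions 671 to 694 (the proximal stretch) and 739 to 762 (the distal stretch). For the places the results turned on, 3 short sequences are given from the deposited region of interest, written 5′ to 3′ on the coding strand. The first is the distal stretch, in capitals with 20 nt on either side. The second is the lowest window of 20 positions in 16C-ds away from the stop codon, positions 535 to 554, in capitals with the same flanks. The third is the last 30 nt of the coding sequence, with the stop codon in capitals.
Distal stretch, positions 719 to 782: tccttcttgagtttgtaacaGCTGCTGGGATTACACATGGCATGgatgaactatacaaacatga
Low window, positions 515 to 574: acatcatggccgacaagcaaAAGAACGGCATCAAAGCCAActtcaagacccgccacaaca
3′ end, positions 763 to 792: gatgaactatacaaacatgatgagcttTAA

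The 16C-ds libraries covered the coding sequence 3′ of midGFP from end to end with a thin layer of reads, whereas WT-ds libraries left most of it empty. At least 1 read lay on 320, 320 and 311 of the 320 positions in 16C-ds replicates 1, 2 and 3. In WT-ds replicates 1, 2 and 3 the number was 81, 43 and 48. The groups did not overlap, with a mean of 317 ± 5.2 covered positions for 16C-ds against 57.3 ± 20.6 for WT-ds (SD, n = 3 per group). The 2-sided exact permutation test gave p = 0.1, the smallest value that 3 libraries against 3 can give.

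The mean raw coverage, the number of reads over a position averaged over the 320 positions, was 16.8, 8.11 and 12.9 reads in 16C-ds replicates 1, 2 and 3. It was 1.3, 0.594 and 0.628 reads in WT-ds replicates 1, 2 and 3. The libraries held between 7186316 and 8824820 total reads, with fewer in every 16C-ds library than in any WT-ds library. The normalized coverage, here the raw coverage per 1000000 total reads of the library, was 2.33, 1.08 and 1.75 for 16C-ds against 0.155, 0.0673 and 0.0745 for WT-ds. The lowest 16C-ds library thus lay above the highest WT-ds library on either scale. The group means of the normalized coverage were 1.72 ± 0.627 and 0.0991 ± 0.049 (SD, n = 3 each), a 17.4-fold difference or 4.12 on the log2 scale (exact permutation test, 2-sided, p = 0.1, the smallest possible). The WT-ds plants lack the GFP transgene, so the groups differ in whether the plant itself carries this sequence. The leaves were extracted whole, so the values give neither the share of cells holding such RNAs nor the amount per cell.

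The difference was not seen in the sprayed segment. Within midGFP the mean normalized coverage was 38.6, 15.4 and 30.4 for 16C-ds against 41.1, 32 and 35.1 for WT-ds, and the groups overlapped (exact permutation test, 2-sided, p = 0.4, n = 3 each). Dividing the mean coverage 3′ of midGFP by that of midGFP in the same library gave 0.0605, 0.0703 and 0.0577 in 16C-ds. The same ratio was 0.00378, 0.0021 and 0.00212 in WT-ds. The means were 0.0629 ± 0.00662 and 0.00267 ± 0.000963 (SD, n = 3 each), 23.6-fold apart, with p = 0.1 in the exact permutation test. The 3 16C-ds libraries were closer to each other in this ratio than in the coverage itself, because replicate 2 was the lowest of the group in midGFP as well as 3′ of it. By the deposited counts of reads of 17 to 30 nt over the region of interest, replicate 2 was not the lowest, with 3347 reads against 2375 and 2323 in replicates 1 and 3. The deposited counts and the deposited coverage thus order these libraries differently, and the reason was not tested. Whether replicate 2 held fewer GFP reads than replicates 1 and 3 cannot be told from them, and all its coverage values carry this limit.

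**Figure D1:**
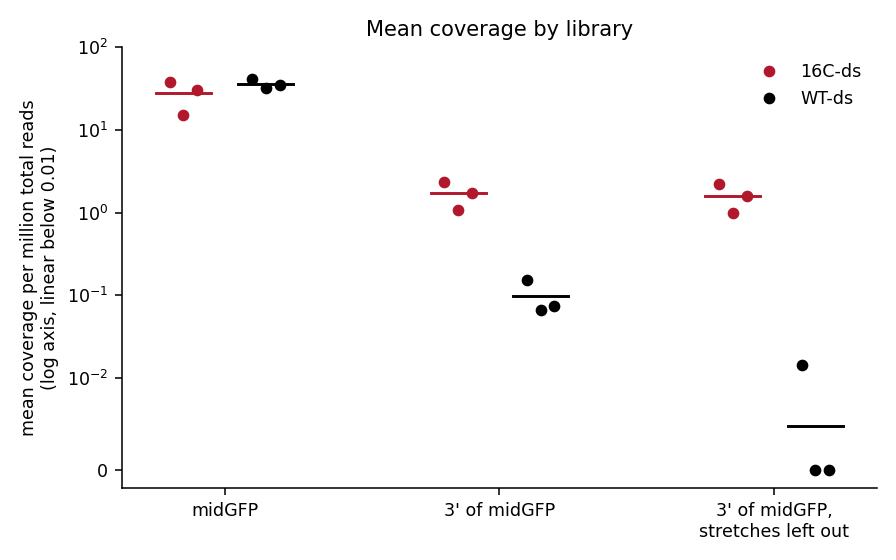
Mean coverage per 1000000 total reads (log axis, linear below 0.01) of midGFP, of the GFP coding sequence 3′ of midGFP, and of the latter without the proximal and distal stretches. Each point is 1 library and each line a mean of 3 libraries of 16C-ds (red) or WT-ds (black). The groups overlapped in midGFP and lay apart 3′ of it, and with the stretches left out 2 WT-ds libraries were at 0. The stretches were set from the WT-ds coverage itself, which lowers the WT-ds values without them.

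At single positions, every 16C-ds library exceeded every WT-ds library in normalized coverage at 291 of the 320 positions, or 90.9%. Over the whole table the same held at 753 of 1931 positions, a background of 39.0%. It held at 66 of 66 positions of the 5′ coding part (GFP positions 188 to 253) and at 0 of 139 positions of midGFP. Neighbouring positions share reads and are not independent. The 29 positions of overlap fell into 3 places. Position 674 and positions 676 to 694 lay in the proximal stretch, where a WT-ds library was high. Positions 784 to 792 lay at the end of the coding sequence, where 16C-ds replicate 3 had no read. At no position did every WT-ds library exceed every 16C-ds library.

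**Figure D2:**
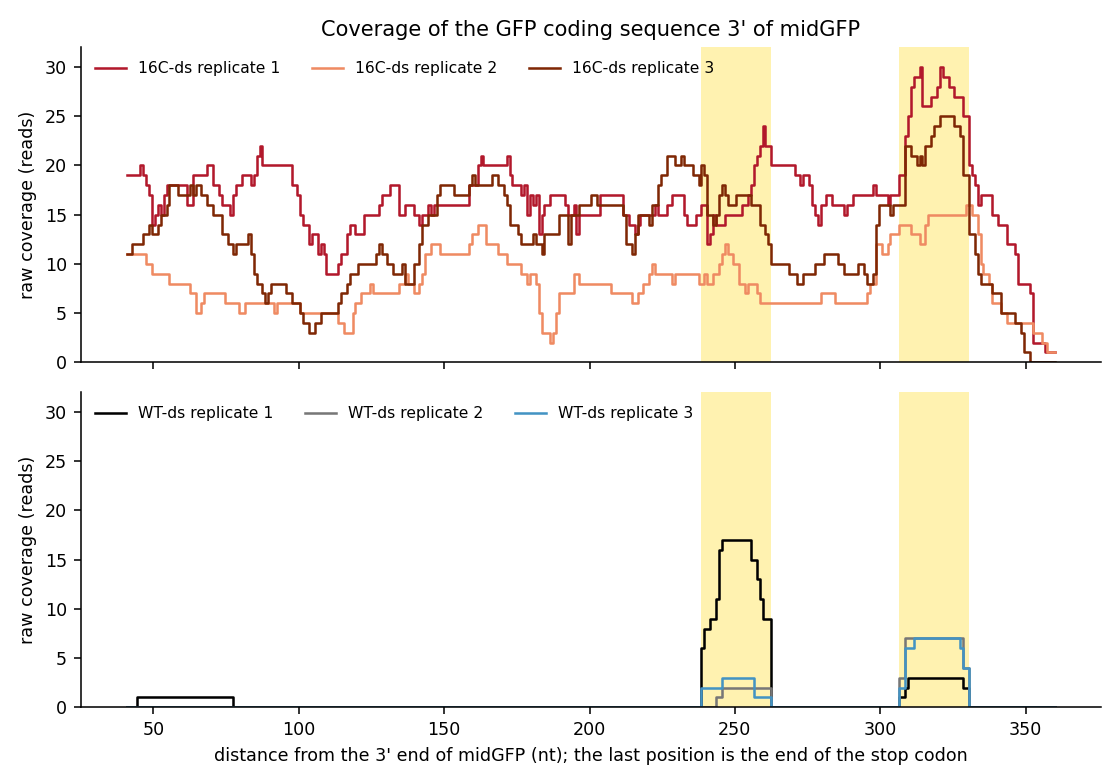
Raw coverage in reads (vertical axis) at each of the 320 positions, by distance in nt from the 3′ end of midGFP, in the 3 16C-ds libraries (top) and the 3 WT-ds libraries (bottom). The shaded bands are the proximal and distal stretches. The 16C-ds libraries stayed covered until the last positions before the stop codon, with the highest values in the distal band, while WT-ds coverage lay in the bands except for 1 read near the left edge.

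The 16C-ds coverage was low and even. The number of reads, counted as the coverage at the first position plus every rise after it, was at least 118, 63 and 102 in replicates 1, 2 and 3, and this is a lower bound because a read that starts where another ends leaves no step. Coverage lay between 0.5 and 1.5 times the library's own mean at 90.3%, 80.9% and 79.1% of the positions. The highest position held 30 reads in replicate 1 (position 746), 16 in replicate 2 (position 762) and 25 in replicate 3 (position 753). These maxima were 1.79, 1.97 and 1.93 times the library means. In WT-ds the maxima were 17 reads (position 678), 7 (position 741) and 7 (position 744), or 13.1, 11.8 and 11.1 times the means. These positions lay in the proximal or the distal stretch, although 16C-ds replicate 2 also had 16 reads at position 763, just beyond the distal stretch.

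No position reached 2 times the library mean in all 3 16C-ds libraries, and none did so in any single one of them. At 1.5 times the mean, 16 positions were shared, 5% of the 320, from 18, 34 and 30 in the single libraries. They formed 2 runs, positions 743 to 745 and 748 to 760, and both lay inside the distal stretch. In the longer run the mean coverage was 27.6, 14.9 and 23.9 reads, or 1.65, 1.84 and 1.85 times the library means. Positions set at 1.5 times the mean in 2 libraries were also high in the third. Read in replicate 1, 18 such positions had a mean of 27.4 reads against 16.1 elsewhere. Read in replicate 2, 18 positions had 14.3 against 7.75, and read in replicate 3, 16 positions had 23.3 against 12.4. At this threshold, the high positions shared by 16C-ds thus lay within sequence at which all WT-ds libraries also held reads.

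The 16C-ds coverage did not fall steadily with distance from midGFP. In bins of 40 positions, the first bin (positions 473 to 512, 41 to 80 nt beyond midGFP) held 17.7, 8.03 and 14.6 reads in replicates 1, 2 and 3. The second (positions 513 to 552) held 15.7, 5.28 and 6.93 reads and was the lowest in replicates 2 and 3. The seventh (positions 713 to 752, 281 to 320 nt beyond midGFP) held 19.9, 10.2 and 14.8 reads and was the highest in replicates 1 and 2. The eighth, up to the stop codon, held 14.7, 8.15 and 9.28 reads. The bin order was not the same in the 3 libraries, since replicate 3 was highest in the fifth bin (positions 633 to 672) with 17.1 reads and replicate 1 lowest in the eighth. The highest bin exceeded the lowest by only 1.36, 1.93 and 2.46 times.

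Fitted to log2 of the bin means, the slope per 100 nt of distance was 0.0029, 0.12 and 0.03 in replicates 1, 2 and 3, a mean of 0.05 ± 0.06 (SD, n = 3). Positions 473 to 632, nearer to midGFP, and positions 633 to 792, nearer to the stop codon, had 16.6 and 16.9 reads in replicate 1, 7.76 and 8.46 in replicate 2, and 12.4 and 13.5 in replicate 3. The positions nearer to the stop codon had 1.07 ± 0.0429 times the coverage of those nearer to midGFP (SD, n = 3). The sign of the small slope depended on the setting. Without the proximal and distal stretches, an alternative chosen after seeing the data, the mean slope was -0.16, and without the last bin, likewise chosen, it was 0.15.

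**Figure D3:**
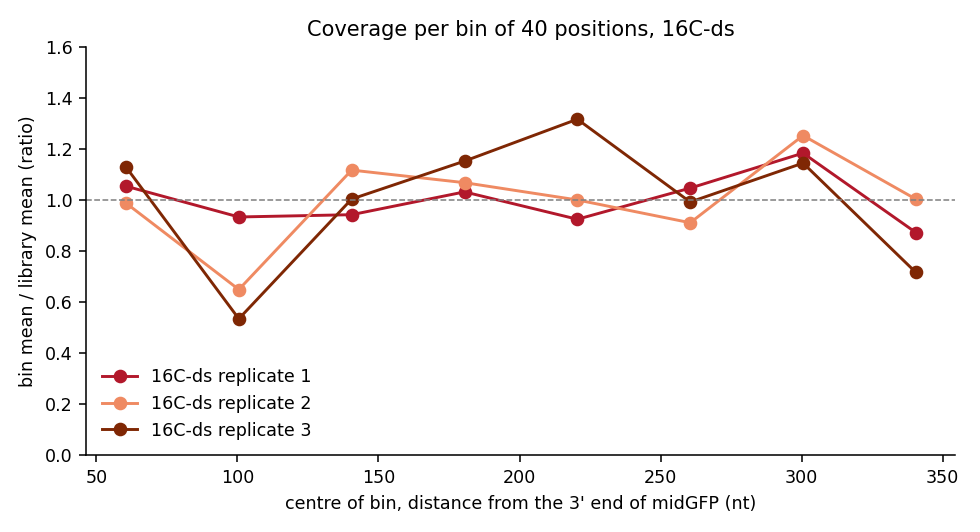
Mean coverage of each bin of 40 positions divided by the library's mean over the 320 positions (ratio, vertical axis), by the distance of the bin's centre from the 3′ end of midGFP in nt, for the 3 16C-ds libraries. The bins stayed between 0.54 and 1.32 times the library mean, and the lines crossed each other with no steady fall.

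Low coverage was shared in 2 places. The window of 20 positions from 535 to 554, 103 to 122 nt beyond midGFP, held 11.7, 4.8 and 6.15 reads in 16C-ds replicates 1, 2 and 3, or 0.70, 0.59 and 0.48 times the library means. It was picked as the window in which the highest of the 3 relative values was lowest, with the last 20 positions set aside. Its sequence, shown above, had 45% G and C, close to the 46.2% of the whole stretch. Over the 8 bins the G and C share ran from 35% to 60%.

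The second low place was the end of the coding sequence. Over positions 753 to 772 the mean coverage was 22.3, 12.9 and 16.3 reads, and over the last 20 positions it was 7, 3.4 and 2.25 reads. Over positions 785 to 792 it was 1.5, 2 and 0 reads. The last position had 1 read in replicates 1 and 2, and coverage in replicate 3 ended at position 783. The first position, 473, had 19, 11 and 11 reads. At or below 0.5 times the mean in all 3 libraries lay 13 positions, 780 to 792, and nowhere else. No position of the coding sequence was empty in all 3 libraries, but the first such run lay just beyond it, 24 positions from 794 to 817. Coverage in 16C-ds thus ran down ahead of the stop codon, with no single base of breaking off shared by the 3 libraries. The last fall of 3 reads or more was at position 785, 767 and 763 in replicates 1, 2 and 3. Why coverage ran down was not tested.

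Single steps were rarely shared. Coverage rose from one position to the next in all 3 16C-ds libraries at 3 positions, and fell in all 3 at 6. The shared rises, at positions 575, 591 and 649, were of 1 or 2 reads in each library. The largest shared fall, at position 673, was of 4, 1 and 4 reads, from 16, 9 and 19 to 12, 8 and 15. The next were at position 766 with 2 reads in each library, at 771 with 2, 2 and 1, at 482 with 3, 1 and 1, and at 533 with 2, 1 and 1. All but 1 of these named shared steps were of 3 reads or fewer in each library.

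Replicate agreement was moderate. Across the 320 positions, Pearson's r was 0.63 between 16C-ds replicates 1 and 2, 0.64 between 1 and 3, and 0.75 between 2 and 3, a mean of 0.67. These values describe positions that share reads and sequence, and carry no test. The rank correlation was lower, at 0.40, 0.38 and 0.75. Without the proximal and distal stretches together the mean r was 0.56, and without the last 20 positions it was 0.57. In midGFP the same libraries had r of 0.99, 0.97 and 0.96, at a coverage of 277, 115 and 224 reads. In the 5′ coding part, at a coverage of 21.3, 8.74 and 10.1 reads over 66 positions, r was -0.50, 0.0040 and -0.48 for the same pairs.

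Within 16C-ds, the coverage 3′ of midGFP was about that of the 5′ coding part, the 66 positions from 188 to 253 that lie in the deposited region of interest on the other side of the sprayed segment. The 5′ coding part had 21.3, 8.74 and 10.1 reads per position in replicates 1, 2 and 3. The stretch 3′ of midGFP was 0.79, 0.93 and 1.28 times as high, below it in replicates 1 and 2 and above it in replicate 3. The mean log2 ratio was -0.03 ± 0.36 (SD, n = 3), with p = 1 in the 2-sided exact sign-flip test, which cannot go below 0.25 with 3 libraries. The sign turned to 0.12 without replicate 1 and to 0.0032 without replicate 2.

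The WT-ds reads 3′ of midGFP lay in 3 places only. The proximal stretch, 239 to 262 nt beyond midGFP, was covered at 24 positions in WT-ds replicates 1 and 3 and at 19 in replicate 2. Its mean coverage was 13.2, 1.5 and 2.21 reads in replicates 1, 2 and 3. The distal stretch, 307 to 330 nt beyond midGFP, was covered at 24 positions in all 3 WT-ds libraries, with 2.71, 6.42 and 6.17 reads. The third place was positions 477 to 509, where replicate 1 had 1 read at each of 33 positions. WT-ds replicate 1 was thus the highest of the group in the proximal stretch and the lowest in the distal stretch.

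These 2 stretches held 92.1%, 100% and 100% of the WT-ds coverage 3′ of midGFP in replicates 1, 2 and 3. In 16C-ds they held 19.4%, 21.1% and 22.0%, on 48 of 320 positions. The stretches were set as the WT-ds runs in which all 3 WT-ds libraries held reads. The high WT-ds share inside them and the low WT-ds values outside follow in part from that choice. At the other 272 positions, WT-ds replicates 2 and 3 had no read and replicate 1 covered 33 positions, whereas 16C-ds replicates 1, 2 and 3 covered 272, 272 and 263. A count of 0 allows up to 3 reads, or 0.34 and 0.356 reads per 1000000 in WT-ds replicates 2 and 3, and such limits cover counting error only. They count whole reads over the 272 positions together. They are thus not on the scale of the mean coverage per position that follows. The mean normalized coverage at these positions was 2.21, 1.0 and 1.61 for 16C-ds against 0.0145, 0 and 0 for WT-ds.

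The WT-ds coverage had stepped edges in both stretches, and the largest single step was the fall of replicate 1 after position 694. WT-ds replicate 1 rose at positions 671, 672, 674, 676, 677 and 678 to 17 reads. It fell by 2 reads at each of positions 688, 690, 691 and 692, and the remaining 9 reads ended together after position 694. WT-ds replicate 3 fell by 2 reads at position 689. In the distal stretch, WT-ds replicate 2 rose by 3 reads at position 739 and by 4 at position 741, then fell by 3 at position 761 and by 4 at position 763. WT-ds replicate 3 rose by 2 and 4 and fell by 2 and 4 at those same positions, with 1 further read in and out. WT-ds replicate 1 rose by 1 and 1 and fell by 1 and 2. Such steps can be read as 2 spans of 22 positions offset by 2, which together fill 24 positions, although coverage alone cannot pair a start with an end.

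Elsewhere in the table the same outline was found at GFP positions 164 to 187, which match the synthetic 22-nt siRNA#164 that the study sprayed on other plants. There WT-ds rose by 7317, 4280 and 3804 reads at position 164 and by 9409, 5495 and 5274 at position 166. It fell by 7657, 4501 and 3934 reads at position 186 and by 9052, 5128 and 4805 at position 188. The rises at positions 164 and 166 made up 88.9%, 90.0% and 91.0% of all rises in that span, and the rises at positions 739 and 741 made up 66.7%, 100% and 85.7% of those in the distal stretch. In the proximal stretch the rise at position 671 made up 35.3%, 0% and 66.7% of the rises, and no WT-ds library rose at position 673, so the second step of that outline was missing there. Of the 7 WT-ds runs of coverage 3′ of midGFP, 5 were 24 positions wide, as were 4 of the 8 runs elsewhere outside midGFP, at positions 135 to 158 in all 3 libraries and 902 to 925 in replicate 3. The runs at positions 135 to 158 shared the width but not the outline, with no rise at position 137 and 16.7%, 20% and 25% of the rises at position 135. These shares rest on few reads, with rises that sum to 6, 5 and 4 reads at positions 135 to 158. The sums were 3, 7 and 7 reads in the distal stretch and 17, 2 and 3 in the proximal stretch. At positions 164 to 187 they were 18807, 10856 and 9974 reads. The WT-ds runs that hold positions 164 to 187 were themselves 27, 26 and 26 positions wide, with few reads before position 164. How these reads came to WT plants was not tested.

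In 16C-ds, each of the 4 edge positions of the distal stretch had a step in 2 of 3 libraries. These were replicates 1 and 2 at position 739 and replicates 1 and 3 at the other edge positions. At the first edge, position 739, coverage rose by 2, 1 and 0 reads in replicates 1, 2 and 3. Coverage rose at position 741 by 4, 0 and 6 reads and fell at position 763 by 5, 0 and 6 reads in replicates 1, 2 and 3. The fall at position 761 was of 2, 0 and 4 reads. Replicate 2, with no step at positions 741, 761 and 763, was also the 16C-ds library with the smallest rises over positions 164 to 187. Their sum was 1490 reads against 9449 and 7219 in replicates 1 and 3, and replicate 2 was the lowest in midGFP as well. The WT-ds libraries did not share this order. WT-ds replicate 1 had the largest rises over positions 164 to 187, a sum of 18807 reads against 10856 and 9974 in replicates 2 and 3. In the distal stretch it had the smallest, a sum of 3 reads against 7 and 7. These orders rest on 3 libraries per group, and what set them was not tested. In 16C-ds replicates 1, 2 and 3 the distal stretch stood above the 24 positions on each side by 11.9, 6.73 and 13.4 reads. The flank on the side of the stop codon reached into positions 773 to 792. Coverage there was only 7, 3.4 and 2.25 reads, which lowered the flank mean. In replicate 2 the higher ground began before the stretch, at 13 reads on position 738, and lasted beyond it, at 16 reads on position 763. Replicate 3 also climbed before the stretch, from 8 reads on position 729 to 16 on position 738, and had 13 on position 763. Replicate 1 had 17 reads on both position 729 and position 738. The proximal stretch stood above its flanks by only 0.188, 1.17 and 2.25 reads.

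In normalized coverage, the distal stretch had 3.69, 1.91 and 2.98 for 16C-ds against 0.324, 0.727 and 0.731 for WT-ds, and the groups did not overlap. The proximal stretch had 2.33, 1.13 and 2.17 for 16C-ds against 1.58, 0.17 and 0.262 for WT-ds, where WT-ds replicate 1 lay above 16C-ds replicate 2. The stretches were chosen after their values had been seen, so these values have no test.

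**Figure D4:**
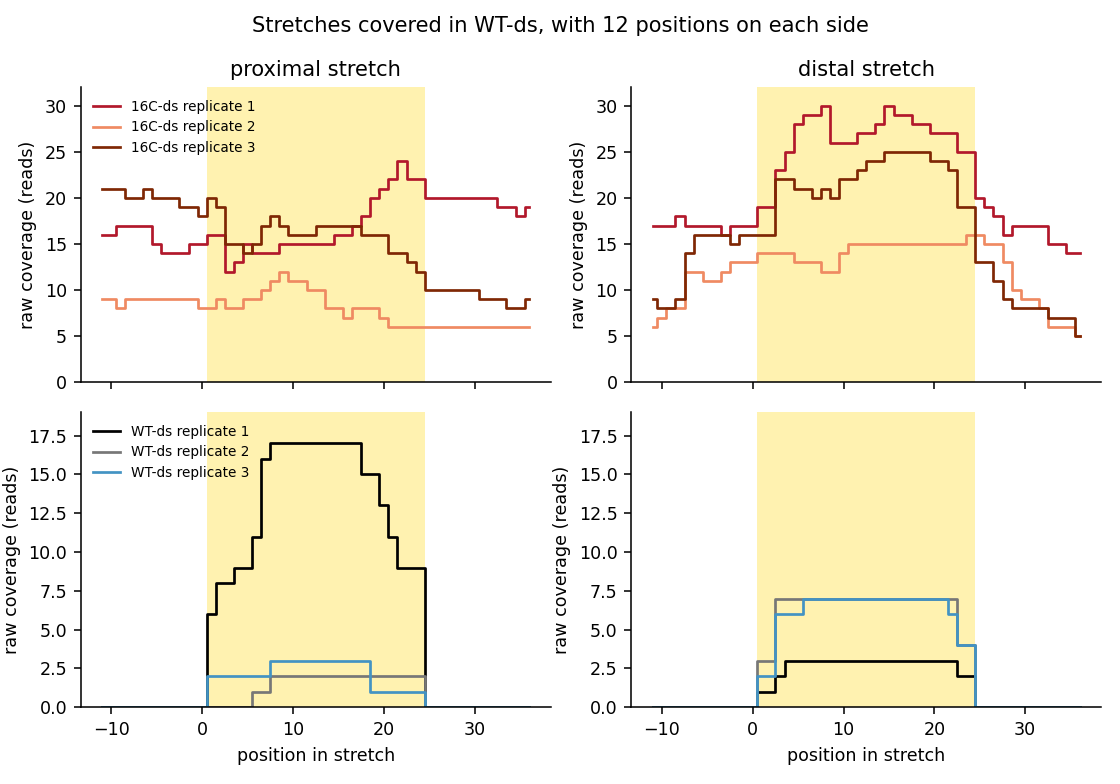
Raw coverage in reads across the proximal (left) and distal (right) stretch with 12 positions on each side, in 16C-ds (top) and WT-ds (bottom), by position counted from the start of each stretch. The shading marks the 24 positions of each stretch. WT-ds coverage began and ended within the shading, while 16C-ds coverage ran on beyond it on both sides.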

How the data were processed

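Small RNA libraries of 7 plants were sequenced. The authors removed the 3′ adapter, mapped reads to GFP (the submitters' notes name Bowtie2 and SAMtools, versions not given in the sources used here) and deposited, as a signal, the raw coverage per position and its forward 10-nt moving average, also divided by total, miR159 or 24-nt reads. Total reads per library were recovered from these ratios. The deposited read counts per length over the region of interest were only summed, for 17 to 30 nt. Per-sample values in 10 columns matched no library name and were not used, nor were columns of unexplained scaling, so 16C-w coverage is not analysed here. Deposited sheets that hold the authors' own ratios to 16C-w and p-values, beside repeated counts, were not used.

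Values per library were compared by 2-sided exact permutation or sign-flip tests (Python 3.11.15, numpy 2.4.6, scipy 1.17.1). The call of positions without overlap was checked on simulated coverage, and the tests and the slope on fixed inputs with known answers. Positions are not replicates and have no test. The rule named the ends, shared hot spots (at least 2 times the library mean), shared empty runs, the 5 largest shared rises and falls, each WT-ds run and each library's maximum. One sequence is not reported here. Members and lists were chosen with earlier results of these data known. Alternatives changed the scaling, region, bins and thresholds, left out each replicate, or used the replicate number as a block.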

Additional observations from a re-analysis of the deposited data

How the results depend on the processing

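The 16C-ds excess in mean coverage and in covered positions kept its direction under every alternative run, at the smallest p each design allows. Leaving out 1 library gave log2 differences of 3.84 to 4.60 and differences of 252.5 to 271.5 covered positions. With the replicate block the values were 4.16 and 259.7 (exact sign-flip p = 0.25 each). The numbers name separate plants, and same-numbered deviations over 8 bins correlated at 0.17, 0.38 and -0.10. Shared hot spot positions numbered 0 at 2 times the mean and 16 at 1.5 times, and 0 in each leave-one-out. There was no hot spot position to leave out of the trend or the agreement. The mean slope per 100 nt was -0.047 in bins of 20, -0.040 with the 40-nt shoulder, 0.15 without the last bin and -0.16 without the WT-ds stretches (the last 2 chosen after seeing the data), and 0.02 to 0.07 on leaving out 1 library. The mean r was 0.51 by ranks, 0.56 without the stretches and 0.57 without the last 20 positions (likewise chosen), and 0.63 to 0.75 on leaving out 1 library. The log2 ratio to the 5′ coding part was 0.16 with the shoulders and -0.23 to 0.12 on leaving out 1 library. The causes were not tested. The 16C-ds coverage rests on at least 118, 63 and 102 reads.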
